A study of Homo sapiens with 12 samples.

Results

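Interferon-stimulated and antigen presentation genes were followed in LNCaP prostate cancer cells with and without Bag-1L. The set held 48 genes, taken by symbol from the interferon pathway: 4 receptor chains, 3 receptor-associated kinases, 6 transcription factors, 4 proteins of RNA sensing, 20 interferon-induced genes and 11 genes of MHC class I antigen presentation. Each symbol matched 1 of the 63677 Ensembl gene identifiers in the count tables. The symbols were taken by pathway and not by a cutoff on measured values, but with earlier results of these data known.

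LNCaP is an established, androgen-responsive line from a lymph node metastasis of prostate cancer. Its Bag-1L knock-out derivative (Bag-1L KO) had been made with a TALEN, a designed nuclease, aimed at the start codon of Bag-1L, which is the longest of the proteins encoded by BAG1, and the control line had been made in parallel with vector. According to the study, single clones were isolated by serial dilution and the start codons of the shorter Bag-1 forms were left in place, so the KO line is of clonal origin and does not lack all BAG1 products. Poly(A) RNA of both lines was sequenced in 6 groups of 2 samples each, to ask how gene expression depends on Bag-1L and on androgen.

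The groups were control and KO cells in full medium (FM, with complete serum), control and KO cells starved of hormone for 72 h in charcoal-treated serum and then given ethanol (EtOH, the vehicle) for 16 h, and control and KO cells starved in the same way and then given 10 nM dihydrotestosterone (DHT) for 16 h. FM samples therefore differed from EtOH samples in serum as a whole and not in androgen alone. The labels call the 2 samples of a group biological duplicates but do not say how they were obtained, so p-values measure the spread between these samples.

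Interferons bind receptors at the cell surface, which carry kinases of the JAK family, and these activate STAT proteins. A complex of STAT proteins with IRF9 binds the interferon-stimulated response element (ISRE) in the promoters of interferon-stimulated genes, many of which encode antiviral proteins. Among the genes that interferon raises are those of MHC class I presentation, in which a heavy chain (HLA) and beta-2-microglobulin (B2M) hold a peptide that the TAP transporter brings into the endoplasmic reticulum, and tumour cells often hold this machinery at a low level.

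Total gene counts ranged from 20826843 to 30354666 per sample. The median absolute log2 difference between replicates was largest in control EtOH (0.239) and control DHT (0.172), beside 0.077 to 0.127 in the other groups. BAG1 had normalized counts of 1701.5 and 2702.6 in control EtOH and 1191.4 and 1103.0 in KO EtOH, and was lower in KO in EtOH (log2 fold change -0.94, SE 0.18, adjusted p = 6.35e-06) and in DHT (-1.14, SE 0.18, adjusted p = 7.71e-09) but was not called in FM (-0.43, SE 0.18, adjusted p = 0.0682). The 8 prostate luminal markers were present in every sample, with sums of 63756.2 to 125589.9 normalized counts. Of 6 leukocyte markers, PTPRC, CD3E and CD68 were at or under 3 counts in every sample, and the list summed to 3.4 to 18.2 normalized counts. A fall in the level of a gene in these bulk samples can come from fewer expressing cells or from less RNA per cell, which cannot be told apart.

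All 48 genes passed the filter of 10 counts summed over the samples, and 44 had more than 3 counts, taken as the floor of detection, in each of the 12 samples. The exceptions were IRF7, a factor that amplifies interferon production, and IFIT3, each above the floor in 9 samples, TLR3, an endosomal sensor of double-stranded RNA, in 10, and OAS2, which reached 4 counts in 1 sample and was at or under the floor in the other 11. Between genes, levels were compared as normalized counts per kb of the canonical transcript. On this scale B2M was highest, with a mean of 8968, followed by IFITM3 (1570), HLA-C (1504) and HLA-B (914), and OAS2 was lowest, at 0.326. Within the signalling part, IFNGR1, the ligand-binding chain of the interferon gamma receptor, had 601 per kb, IFNAR1 and IFNGR2 301 and 298, and IFNAR2 45.1, whereas the kinase TYK2 had 330, JAK2 45.3 and JAK1 29.3. In normalized counts, which are not corrected for length, 9 genes had a mean of at least 1000 and 23 a mean under 100. The precision is therefore uneven: a change of equal size is harder to call in scarce genes such as IFI27 or HLA-F than in B2M, HLA-B or HLA-C.

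**Figure D1:**
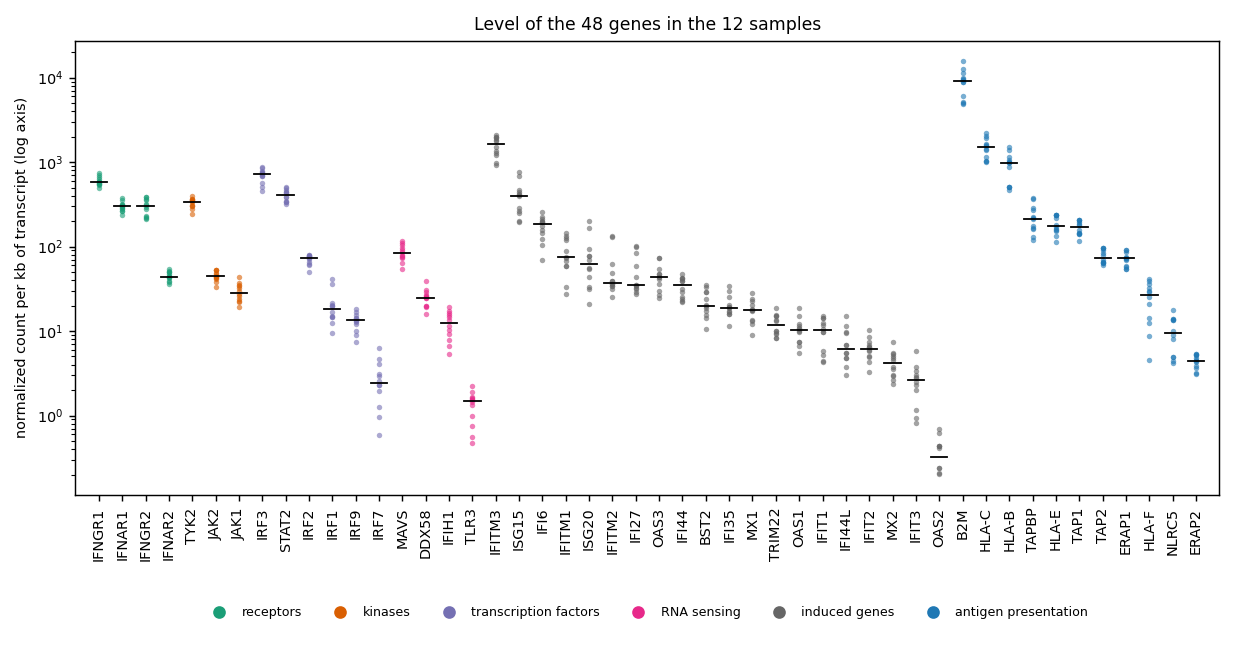
Levels of the 48 genes, grouped by role and sorted by mean within each role, on a log axis of normalized counts per kb of canonical transcript. Points are the 12 samples (samples at 0 are not drawn) and black lines their medians; B2M stands at the top with a mean of 8968 and OAS2 at the bottom with 0.326.

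Expression of interferon genes themselves was not detectable at this depth. IFNG and IFNA1 had 0 counts in all samples, and IFNB1, IFNE, IFNL1, IFNL2 and IFNL3 had at most 2 counts in any sample, where 3 counts correspond to 0.0988 to 0.144 CPM (counts scaled to a common library total).

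Promoters of the genes were examined for the ISRE, the element that the complex of STAT proteins with IRF9 binds. RefSeq promoter windows (GRCh38.p14, 250 bases before to 50 bases after the start of the gene) were matched for 37 of the 48 genes and searched on both strands for the ISRE core, GAAA and GAAA with any 2 bases between them. The core was present in 21 of the 37 (56.8%), beside 3.57% of all 35116 promoters in the table. By role it was found in 13 of 15 induced genes, 6 of 9 presentation genes and 2 of 4 RNA sensing genes, and in 0 of the 9 receptors, kinases and transcription factors matched. The gamma-activated sequence TTCNNNGAA was present in 8 of the 37 (21.6%), beside 7.66% of all promoters. A match is a description of the letters and does not show that a factor binds there. The windows of 8 matched genes whose levels are described below are printed here. Each was picked because it holds the core, so their likeness follows from the search and is not a result. Each is written in the direction of the gene, with the bases of a match in capitals; where a core lies on the other strand it reads as TTTC and TTTC with 2 bases between.
IFITM1, chr11:314024-314053, plus strand: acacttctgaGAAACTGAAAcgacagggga
IFITM3, chr11:320893-320922, minus strand: caaatgccagGAAAAGGAAActgttgaGAA
TAPBP, chr6:33314079-33314108, minus strand: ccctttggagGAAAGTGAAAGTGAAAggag
B2M, chr15:44711363-44711392, plus strand: gagactctaaGAAAAGGAAACTGAAAacgg
HLA-F, chr6:29723268-29723297, plus strand: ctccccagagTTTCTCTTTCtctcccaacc
ISG15, chr1:1013374-1013403, plus strand: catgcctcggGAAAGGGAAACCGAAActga
ISG20, chr15:88638937-88638966, plus strand: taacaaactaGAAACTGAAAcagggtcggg
OAS3, chr12:112938452-112938481, plus strand: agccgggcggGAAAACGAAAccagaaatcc
In TAPBP, B2M and ISG15 a pair of cores overlap, so that 1 run of capitals holds both, and the last 3 capitals of IFITM3 open a further core that runs past the window.

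**Figure D2:**
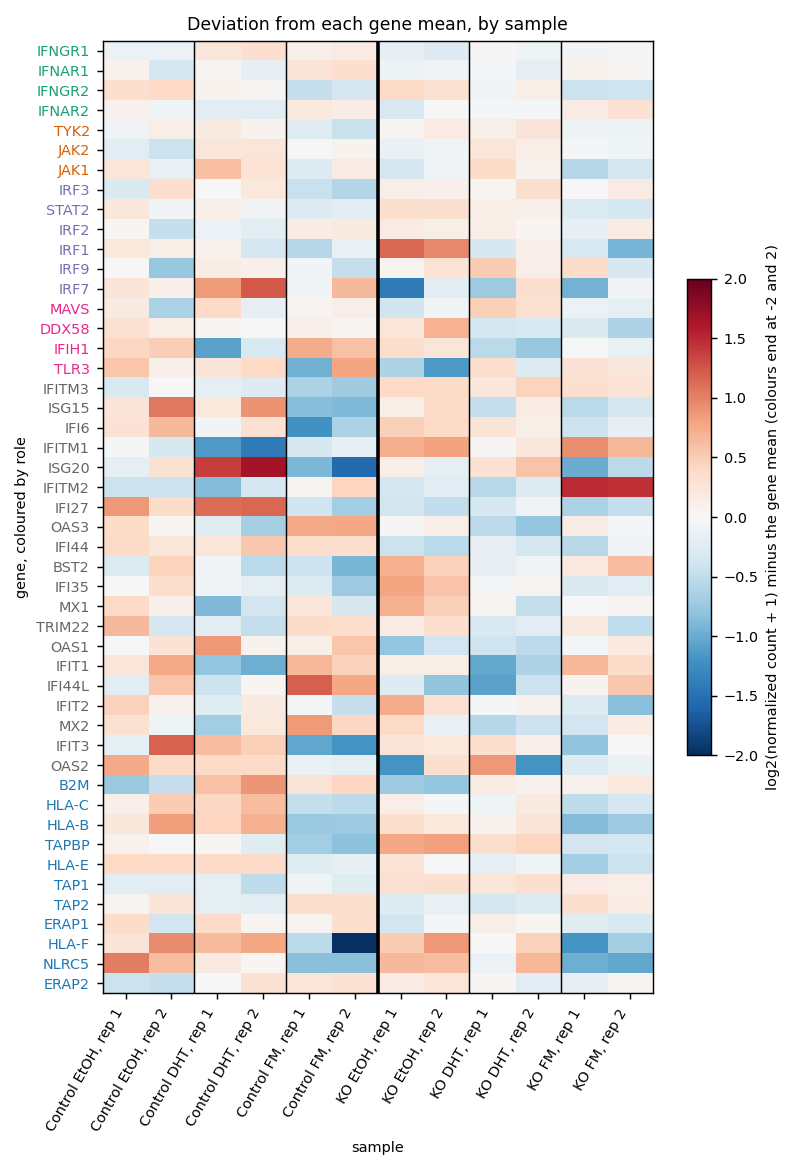
Deviation of each sample from the mean of the gene, as log2 (normalized count + 1), for the 48 genes (vertical axis, coloured by role) in the 12 samples (horizontal axis, control at the left and KO at the right of the thick line). The colours end at -2 and 2; the FM columns of HLA-B, HLA-F, NLRC5 and TAPBP are blue in both lines, and IFITM1 is redder in the KO columns than in the control columns of the same medium.

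Bag-1L KO cells were first compared with control cells within each culture condition. Genes were called at an adjusted p of 0.05 or less together with a change of 1.5-fold or more. Where groups of 2 samples are said not to overlap, this only describes the samples. The share of all genes that were so separated was not computed. In EtOH 3 of the 44 genes with an adjusted p were called, all higher in KO, beside 5.11% of all genes tested (2.80% higher and 2.31% lower). In DHT 5 of 44 were called, 2 higher and 3 lower, beside 7.98% of all genes (4.66% higher and 3.32% lower), and in FM 5 of 43, 4 higher and 1 lower, beside 8.01% (5.41% higher and 2.60% lower). The median log2 fold change of the set was -0.012 in EtOH, -0.003 in DHT and -0.066 in FM, close to that of all genes tested (-0.015, -0.018 and -0.014). The set as a whole thus did not stand higher or lower in KO, and the calls concerned 11 named genes, 1 of which, IFITM1, was called in all 3 conditions. These counts rest on few samples. The DHT count was 0 without control DHT replicate 2 and 8 without control DHT replicate 1, the EtOH count was 1 without either replicate of control FM or of KO EtOH, and the FM count was 1 without KO FM replicate 2, 2 without control FM replicate 2 and 3 without the first replicate of either FM group. In FM the prostate luminal markers, all 8 detected, also stood apart, with sums of 79549.1 to 81162 normalized counts in control and 104634.7 to 113886.7 in KO, and endothelial markers summed to 223.7 to 241.8 in control and 160.4 to 180.9 in KO. The lines also stood apart in EtOH, where endothelial markers summed to 178 to 206.9 in control and 132.6 to 144.7 in KO and leukocyte markers to 13 to 14.3 and 3.4 to 4.6, and in DHT, where fibroblast markers summed to 997.7 to 1043.8 in control and 743.8 to 852.6 in KO. Their part in these results was not tested.

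**Figure D3:**
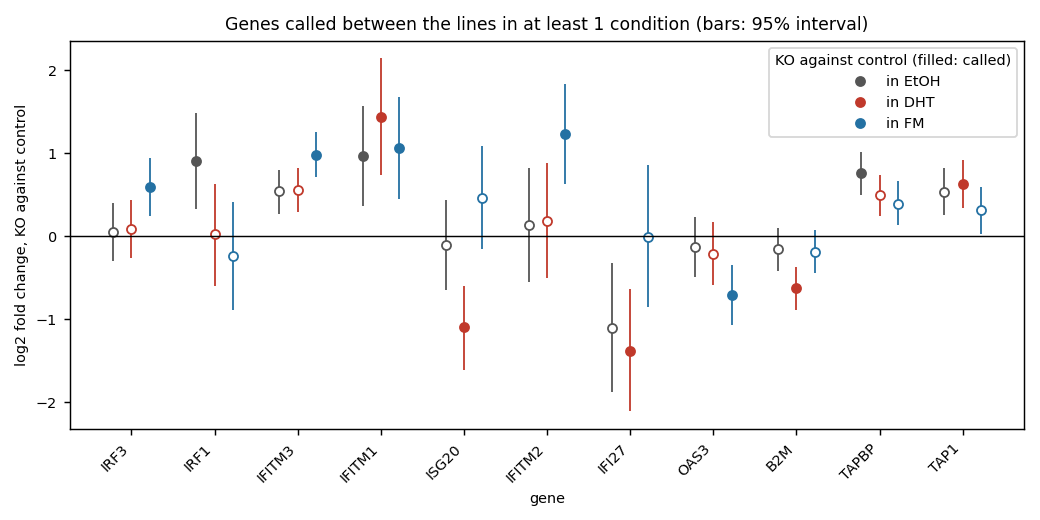
Log2 fold change of KO against control (vertical axis) for the 11 genes called in at least 1 condition (horizontal axis), with 95% intervals; filled points are called and open points are not. IFITM1 is filled in EtOH, DHT and FM, whereas each of the other 10 genes is filled in 1 condition.

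The IFITM proteins, membrane proteins that block the entry of enveloped viruses, formed the clearest group. Their genes lie side by side on chromosome 11 (GRCh37, IFITM2 at 303655 to 309397, IFITM1 at 310041 to 315272 and IFITM3 at 319676 to 329475). IFITM1 had normalized counts in EtOH of 48.5 and 39.8 in control against 83.6 and 88.5 in KO. In DHT the counts were 22.2 and 18.2 against 50.8 and 58.8, and in FM 39.8 and 44.7 against 96.1 and 80.0. Both KO samples were above both control samples in each condition. The log2 fold change was 0.96 (SE 0.31, adjusted p = 0.0237) in EtOH, 1.44 (SE 0.36, adjusted p = 0.00107) in DHT and 1.06 (SE 0.31, adjusted p = 0.00769) in FM.

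IFITM3 had far more counts. It stood at 596.3 and 564.2 normalized counts in control FM against 1166.8 and 1114.7 in KO FM, at 751.8 and 935.0 against 1219.6 and 1224.4 in EtOH, and at 818.8 and 773.7 against 1080.3 and 1263.0 in DHT. The KO samples were higher throughout, with no overlap. IFITM3 was called in FM (log2 fold change 0.98, SE 0.14, adjusted p = 2.13e-10). In EtOH (0.54, SE 0.14, adjusted p = 0.00181) and in DHT (0.56, SE 0.14, adjusted p = 0.000727) its adjusted p passed but its fold change stayed under the minimum. IFITM2 showed a different arrangement, since its highest values were those of KO FM. It had 48.6 and 63.2 normalized counts in control FM and 132.4 and 130.4 in KO FM, beside 25.2 to 39.5 in the 8 starved samples of both lines. The log2 fold change of KO against control in FM was 1.23 (SE 0.3, adjusted p = 0.00108), and those in EtOH (0.13, 95% interval -0.55 to 0.82) and DHT (0.18, -0.51 to 0.88) were not called.

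Of the 50-base words in the transcripts of IFITM1, IFITM2 and IFITM3, 20.06%, 20.53% and 15.7% occur in other genes, mostly within the family, so that part of their reads may have been left uncounted or placed in a sister gene. Other genes within 5 Mb of this cluster (which includes IRF7) had a median log2 fold change of KO against control of -0.04 in EtOH, 0.02 in DHT and 0.28 in FM, where 12 of 72 were called higher and 0 lower. The 3 IFITM genes had medians of 0.54, 0.56 and 1.06. The call of IFITM1 was kept under 10 of 18 alternatives in EtOH, was lost in DHT without control DHT replicate 2 (1.3), and was lost in FM without any single FM sample. That of IFITM2 was lost without control FM replicate 1 and without either KO FM replicate, and that of IFITM3 in FM was kept under all 18 alternatives.

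Within antigen presentation, TAPBP and TAP1 of the peptide loading machinery were each called higher in KO in 1 medium, whereas TAP2, the other subunit of the transporter, was not called. TAPBP (ENSG00000231925, GRCh37 chromosome 6, 33267471 to 33282061), which encodes tapasin, the bridge between the peptide transporter and the class I heavy chain, had 768.9 and 730.1 normalized counts in control EtOH and 1249.0 and 1280.8 in KO EtOH, a log2 fold change of 0.76 (SE 0.13, adjusted p = 2.95e-07). In DHT it had 743.0 and 611.3 against 923.8 and 979.1, and in FM 448.4 and 410.5 against 555.0 and 572.1. KO samples were higher than control samples in each medium, but the changes in DHT (0.49, SE 0.13, adjusted p = 0.00214) and FM (0.39, SE 0.14, adjusted p = 0.0275) did not reach the fold change minimum. TAP1 (ENSG00000168394, chromosome 6, 32812986 to 32821593), a subunit of the transporter, had 387.7 and 310.7 in control against 526.8 and 554.8 in KO with DHT (log2 fold change 0.63, SE 0.15, adjusted p = 0.000323). In EtOH it had 378.7 and 384.0 against 548.2 and 553.4 (0.53, SE 0.15, adjusted p = 0.00507), again without overlap and under the fold change minimum, and in FM 419.6 and 376.4 against 496.2 and 487.7 (0.31, SE 0.15, adjusted p = 0.128). TAP2 had 449.2 and 517.3 in control EtOH against 360.6 and 387.7 in KO (-0.37, SE 0.14, adjusted p = 0.0908), 374.6 and 366.2 against 338.0 and 358.6 in DHT (-0.09, 95% interval -0.38 to 0.2) and 538.9 and 536.9 against 546.6 and 480.1 in FM (-0.07, -0.34 to 0.21). Its KO samples were thus below the control samples in EtOH and DHT, the opposite side from TAP1. PDIA3, a disulfide isomerase of the loading complex and not one of the 48 genes, was called lower in KO in DHT, with 30384.1 and 38937.3 against 21805.2 and 21357.8 (-0.68, SE 0.14, adjusted p = 1.46e-05). The call of TAPBP in EtOH was kept under all 18 alternatives, and that of TAP1 in DHT was lost without control DHT replicate 2, where its log2 fold change was 0.48.

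B2M (ENSG00000166710, chromosome 15, 45003556 to 45011049), the invariant light chain of every class I molecule, was lower in KO cells given DHT. It had 11927.1 and 14699.0 normalized counts in control DHT, against 8789.2 and 8400.5 in KO, with all KO samples below the control samples, a log2 fold change of -0.63 (SE 0.13, adjusted p = 4.89e-05). In EtOH control had 4757.1 and 5790.2 against 4845.7 and 4617.9 in KO, which overlap (-0.16, 95% interval -0.42 to 0.1), and in FM it had 9444.3 and 10629.5 against 8409.3 and 9167.1 (-0.19, -0.45 to 0.07). Without control DHT replicate 2 the change of B2M in DHT was -0.47 and was not called. No heavy chain gene of the set was called between the lines. HLA-B, HLA-C and HLA-E had log2 fold changes in DHT of -0.42 (adjusted p = 0.0795), -0.46 (adjusted p = 0.0165) and -0.53 (SE 0.15, adjusted p = 0.00397), and the last 2 stayed under the fold change minimum.

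Among the interferon-induced genes, ISG20 and IFI27 were lower in KO given DHT. ISG20 (ENSG00000172183, chromosome 15, 89178901 to 89199714), an exonuclease that degrades single-stranded RNA, had 259.5 and 315.7 normalized counts in control DHT, against 121.0 and 147.4 in KO (log2 fold change -1.1, SE 0.26, adjusted p = 0.000378), whereas the lines overlapped in EtOH, at 87.5 and 122.3 against 108.5 and 86.6. IFI27 (ENSG00000165949, chromosome 14, 94571182 to 94583032), widely used as a marker of the interferon response, had 71.7 and 72.6 in control against 25.0 and 30.9 in KO with DHT (-1.38, SE 0.37, adjusted p = 0.00302). Control samples were higher for both genes, with no overlap in DHT. In EtOH, IFI27 had 60 and 41.8 in control and 24.9 and 22.6 in KO, and this difference missed the threshold (-1.11, SE 0.4, adjusted p = 0.0522). In FM, IFI27 was at 24.3 and 19.5 in control and 20.5 and 23.0 in KO, so that the lines overlapped (-0.01, 95% interval -0.86 to 0.85). The calls of ISG20 and IFI27 were lost without control DHT replicate 2 and without KO DHT replicate 1.

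OAS3 (ENSG00000111331, chromosome 12, 113375856 to 113414265), which makes the short oligoadenylates that activate RNase L, was lower in KO in FM. It had 477.1 and 480.5 normalized counts in control FM and 311.5 and 272.9 in KO FM, with no overlap (log2 fold change -0.71, SE 0.18, adjusted p = 0.00175). In EtOH (-0.13, 95% interval -0.49 to 0.23) and DHT (-0.21, -0.59 to 0.17) it was not called. The call in FM was lost without control FM replicate 2 and without KO FM replicate 2. Other genes within 5 Mb of the OAS cluster on chromosome 12 had medians of -0.13, -0.15 and -0.17 in EtOH, DHT and FM.

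A pair of transcription factors was called between the lines, each in 1 medium. IRF1 (ENSG00000125347, chromosome 5, 131776132 to 131844411), an activator of class I and interferon-stimulated genes, had 76.1 and 71.6 normalized counts in control EtOH and 146.9 and 128.9 in KO EtOH (log2 fold change 0.9, SE 0.3, adjusted p = 0.0288). The KO EtOH samples were the highest of all 12, and the other 10 lay between 34.0 and 76.1. IRF3 (ENSG00000126456, chromosome 19, 50162826 to 50169132), the factor that RNA sensing activates, had 804.0 and 727.6 in control FM and 1088.5 and 1217.7 in KO FM (0.59, SE 0.18, adjusted p = 0.0103), and its control EtOH replicates, at 897.4 and 1382.7, lay on either side of both KO EtOH samples, at 1178.9 and 1176.4. In DHT, IRF3 had 1090.3 and 1264.9 in control against 1136.0 and 1358.6 in KO, which overlap. IRF1 in EtOH kept its call under 11 of 18 alternatives, and it was lost without either replicate of control EtOH, KO EtOH or control FM. IRF3 in FM kept its call under 15, and it was lost without control FM replicate 2 or KO FM replicate 2. None of the receptors and kinases was called between the lines, and STAT2 was not called either.

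DHT samples were then compared with the EtOH samples of the same line. In control 6 of 45 genes were called, 2 higher and 4 lower with DHT, beside 11.4% of all genes (6.04% higher and 5.37% lower), and in KO 5 of 45, 2 higher and 3 lower, beside 7.68% (4.43% higher and 3.24% lower). The medians of the set were -0.083 and -0.116, and those of all genes -0.017 and -0.014. Without control DHT replicate 2 the control count was 3, and the KO count was 2 without either KO DHT replicate and 3 without either KO EtOH replicate. The prostate luminal markers, which include the androgen targets KLK2 and KLK3, summed to 63756.2 to 70850.8 normalized counts in EtOH and to 115132.5 to 125589.9 in DHT. In control, fibroblast markers also summed to 784.9 to 839.4 in EtOH and 997.7 to 1043.8 in DHT, endothelial markers to 178 to 206.9 and 140.2 to 154.5, and basal epithelial markers to 6 to 6.7 and 10 to 13.1. Of the basal epithelial list, TP63 and KRT5 had at most 4 counts in any sample. The part of these lists in the DHT results was not tested.

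B2M rose with DHT in both lines. From 4757.1 and 5790.2 normalized counts in EtOH it went to 11927.1 and 14699.0 in DHT in control (log2 fold change 1.34, SE 0.13, adjusted p = 5.2e-22, a 2.52-fold change), and from 4845.7 and 4617.9 to 8789.2 and 8400.5 in KO (0.86, SE 0.13, adjusted p = 3.68e-09, 1.82-fold). The ranges were far apart in each line, and both calls were kept under all 18 alternatives. None of the heavy chain genes was called with DHT in either line. HLA-B changed by 0.02 (95% interval -0.33 to 0.36) in control and -0.11 in KO, and HLA-E by -0.01 (-0.29 to 0.27) and -0.28. ISG20 rose with DHT in control, from 87.5 and 122.3 to 259.5 and 315.7 (1.46, SE 0.26, adjusted p = 6.59e-07), with no overlap. In KO, ISG20 had 108.5 and 86.6 in EtOH and 121.0 and 147.4 in DHT and was not called (0.46, SE 0.27, adjusted p = 0.326).

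Most of the genes that fell with DHT encode antiviral effectors or RNA sensors. IFIT1, which binds viral RNA lacking a normal cap, had 45.7 and 65.7 normalized counts in control EtOH and 22.2 and 19.2 in control DHT (log2 fold change -1.43, SE 0.39, adjusted p = 0.00236), and in KO it had 41.8 and 42.3 in EtOH and 18.6 and 24.9 in DHT (-0.97, SE 0.39, adjusted p = 0.0845, not called). IFIH1, the cytosolic RNA sensor MDA5, had 55.2 and 58.7 against 19.2 and 33.3 in control (-1.12, SE 0.37, adjusted p = 0.0157), and 53.1 and 48.9 against 28.2 and 23.9 in KO (-0.96, SE 0.37, adjusted p = 0.0605, not called). The DHT samples were below the EtOH samples in each line for both genes. OAS3 was called in both lines, with 362.6 and 290.5 in EtOH against 237.2 and 177.5 in DHT in control (-0.66, SE 0.19, adjusted p = 0.00431) and 286.0 and 309.6 against 194.4 and 164.3 in KO (-0.73, SE 0.19, adjusted p = 0.00188). IFITM1 fell in control, from 48.5 and 39.8 to 22.2 and 18.2 (-1.13, SE 0.37, adjusted p = 0.0142). In KO its values were 83.6 and 88.5 in EtOH and 50.8 and 58.8 in DHT (-0.66, SE 0.3, adjusted p = 0.149, not called). In control the calls of IFIT1 (without control EtOH replicate 2 or control DHT replicate 2), IFIH1 (without control EtOH replicate 2 or control DHT replicate 1), OAS3 (without control EtOH replicate 1 or control DHT replicate 2) and IFITM1 (without control EtOH replicate 1 or either control DHT replicate) were lost, and in KO that of OAS3 was lost without KO EtOH replicate 2 or KO DHT replicate 2.

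In KO, 3 further genes were called with DHT. IRF1 fell from 146.9 and 128.9 to 52.4 and 70.7 normalized counts (log2 fold change -1.17, SE 0.3, adjusted p = 0.00134), beside 76.1 and 71.6 against 69.7 and 51.4 in control (-0.29, SE 0.31, not called). DDX58, the RNA sensor RIG-I, fell from 133.4 and 183.5 to 87.9 and 91.6 (-0.83, SE 0.24, adjusted p = 0.00609), beside 139.9 and 123.3 against 114.1 and 114.0 in control. MAVS, the mitochondrial adaptor to which both RNA sensors signal, rose from 748.3 and 936.4 to 1366.7 and 1218.1 (0.62, SE 0.22, adjusted p = 0.0422). The KO groups did not overlap for any of the 3 genes. In control the replicates of MAVS spread widely, at 1118.1 and 636.6 in EtOH and 1300.3 and 881.6 in DHT, and overlapped. The call of MAVS was kept under 10 of 18 alternatives and was lost under edgeR, that of IRF1 was lost without KO EtOH replicate 1 or KO DHT replicate 1, and that of DDX58 without KO EtOH replicate 2 or either KO DHT replicate.

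Whether the lines differed in their response was tested directly, as the DHT response in KO minus that in control. No gene of the set was called by DESeq2 among 37 with an adjusted p, beside 0.408% of all genes (0.223% higher and 0.185% lower), nor by edgeR. At an unadjusted p under 0.05 there were 3 genes by DESeq2 (IRF1, B2M and ISG20) and 5 by edgeR. The difference was -0.47 (SE 0.19, adjusted p = 0.676) for B2M and -0.99 (SE 0.38, adjusted p = 0.586) for ISG20, with intervals before adjustment of -0.84 to -0.11 and -1.73 to -0.25 (95%). A smaller response of these genes in KO did not pass after adjustment over all genes. Without control EtOH replicate 2 the count was 1.

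Cells in full medium were compared with starved cells given EtOH. In control 12 of 47 genes were called, 1 higher and 11 lower in FM, beside 21.3% of all genes in either direction (9.81% higher and 11.5% lower). In KO 14 of 47 were called, 2 higher and 12 lower, beside 19.3% of all genes in either direction (9.61% higher and 9.68% lower). The medians of the set were -0.094 in control and -0.171 in KO, beside -0.009 and -0.007 over all genes. The 11 presentation genes carried much of this, with 6 lower and 1 higher in control (median -0.594) and 5 lower and 1 higher in KO (median -0.479). The KO count was 9 without KO FM replicate 1 and without KO EtOH replicate 2. The same EtOH samples are the reference here and for the DHT response of the same line.

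**Figure D4:**
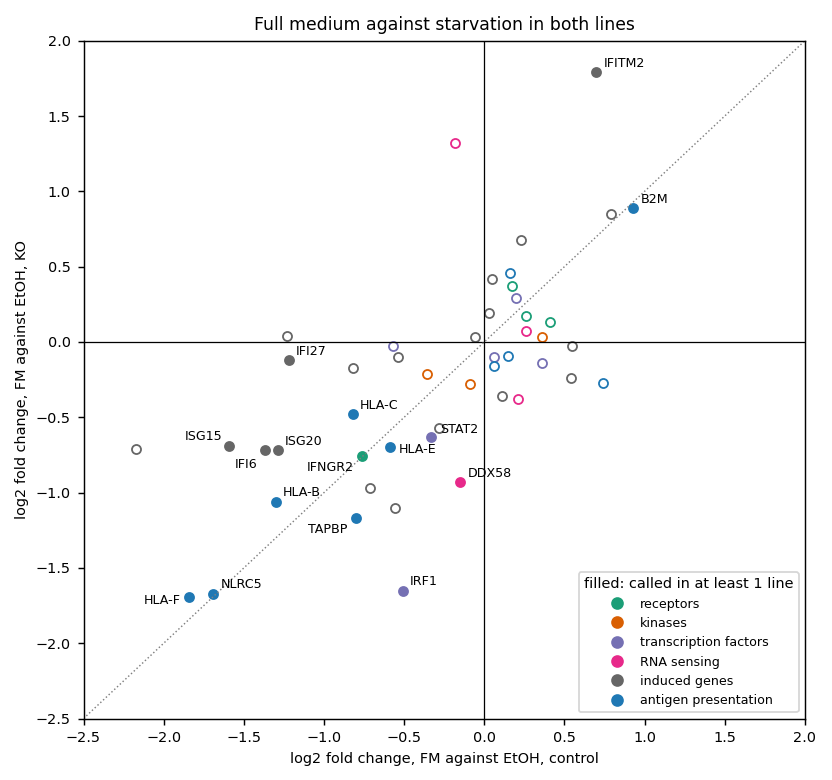
Log2 fold change of FM against EtOH in control (horizontal axis) and in KO (vertical axis) for the genes of the set; filled, named points are called in at least 1 line, colours give the role and the dotted line marks equal change. HLA-B, HLA-F, NLRC5 and TAPBP lie at the lower left, B2M and IFITM2 at the upper right.

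HLA-B and HLA-C, classical heavy chains, were low in FM. HLA-B (ENSG00000234745, chromosome 6, 31321649 to 31334844) had 1525.4 and 2327.6 normalized counts in control EtOH and 778.6 and 784.0 in control FM (log2 fold change -1.3, SE 0.18, adjusted p = 4.15e-12), and 1625.4 and 1506.7 against 713.5 and 786.9 in KO (-1.06, SE 0.18, adjusted p = 2.67e-08). The 4 FM samples were below the 8 starved samples of both lines. HLA-C (ENSG00000204525, chromosome 6, 31236526 to 31239907) had 2409.5 and 3171.2 against 1609.0 and 1561.2 in control (-0.82, SE 0.15, adjusted p = 6.18e-07). In KO it had 2464.1 and 2209.7 against 1577.2 and 1775.6 (-0.48, SE 0.15, adjusted p = 0.00633), without overlap but under the fold change minimum.

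The heavy chains HLA-E and HLA-F, which are less variable between people, and NLRC5, the transactivator of class I genes, showed the same order. HLA-E had 606.2 and 595.8 normalized counts in control EtOH and 388.7 and 407.6 in control FM (-0.59, SE 0.15, adjusted p = 0.00034), and 552.7 and 458.3 against 285.4 and 338.7 in KO (-0.7, SE 0.15, adjusted p = 3.29e-05). HLA-F was scarce, with 37.1 and 60.7 against 21.0 and 6.8 in control (-1.84, SE 0.49, adjusted p = 0.000904) and 44.1 and 57.4 against 13.1 and 18.6 in KO (-1.69, SE 0.48, adjusted p = 0.00198). NLRC5 had 121.8 and 91.5 against 33.1 and 33.1 in control (-1.69, SE 0.34, adjusted p = 5.15e-06), and 93.8 and 92.2 against 29.8 and 28.5 in KO (-1.67, SE 0.35, adjusted p = 1.16e-05). For each of these genes the FM samples of a line lay below its EtOH samples. HLA-E was called by a narrow margin in control, where its call was lost without control FM replicate 1 and without control EtOH replicate 1, and in KO it was lost without KO FM replicate 1 and without KO EtOH replicate 1. It was also lost in both lines with the DHT samples as the reference. The call of HLA-F was lost without control FM replicate 2 in control, and without KO FM replicate 1 and without KO EtOH replicate 2 in KO.

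TAPBP followed the heavy chains, with 768.9 and 730.1 normalized counts in control EtOH against 448.4 and 410.5 in FM (log2 fold change -0.8, SE 0.13, adjusted p = 2.95e-08), and 1249.0 and 1280.8 against 555.0 and 572.1 in KO (-1.17, SE 0.13, adjusted p = 9.61e-18). B2M went the other way, from 4757.1 and 5790.2 to 9444.3 and 10629.5 in control (0.93, SE 0.13, adjusted p = 5.54e-11) and from 4845.7 and 4617.9 to 8409.3 and 9167.1 in KO (0.89, SE 0.13, adjusted p = 3.15e-10). Light chain and heavy chains of the same complex thus had opposite signs in FM against EtOH. TAP1 and TAP2 were not called (0.06 and 0.16 in control), and neither were the trimming peptidases ERAP1 and ERAP2.

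**Figure D5:**
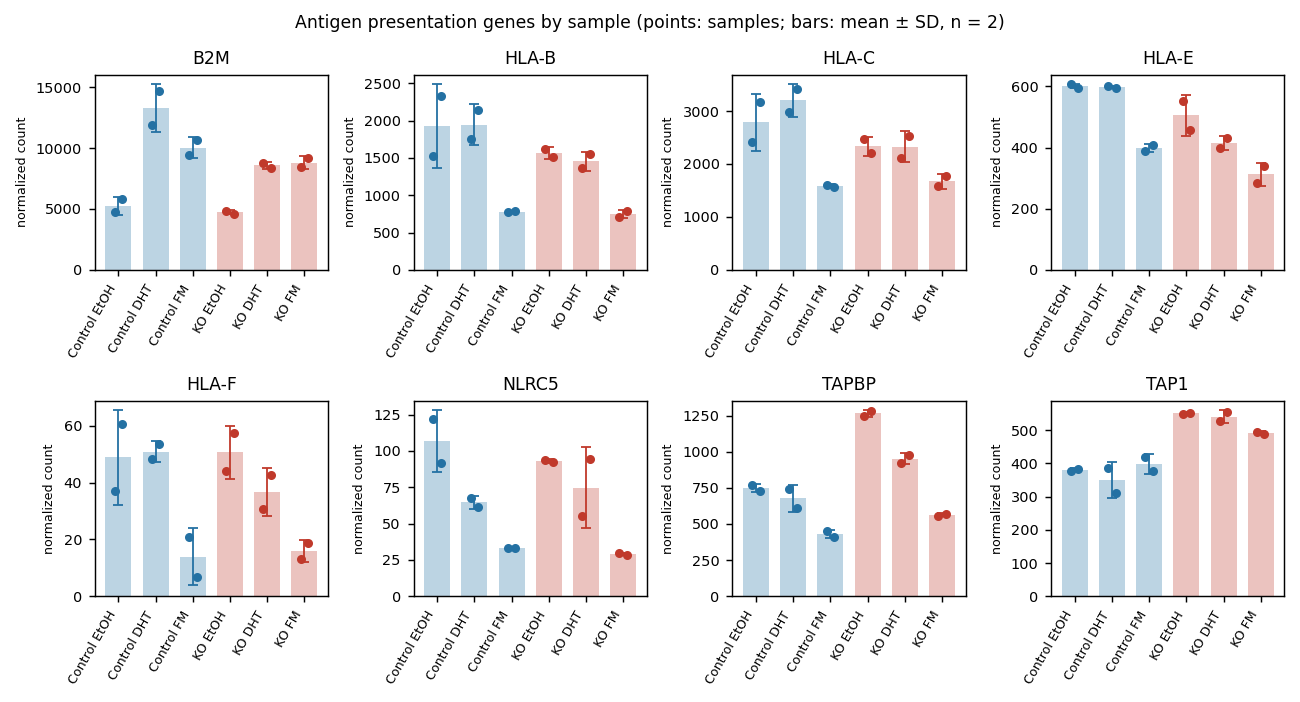
Normalized counts of 8 antigen presentation genes (vertical axis, from 0) in the 6 groups (horizontal axis; control blue, KO red); points are samples and bars the mean ± SD of 2 samples. B2M is low in both EtOH groups and higher in DHT and FM, whereas HLA-B, HLA-F and NLRC5 are lowest in both FM groups and TAPBP and TAP1 are higher in KO than in control.

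When the DHT samples of the same line were taken as the starved reference, a comparison added after the first results had been seen, HLA-B (-1.32 in control and -0.95 in KO), HLA-F (-1.9 and -1.22), NLRC5 (-0.96 and -1.35) and TAPBP (-0.66 and -0.76) were again called lower in FM in both lines. B2M was not higher against this reference. Its log2 fold change was -0.41 (SE 0.13, adjusted p = 0.00859, under the fold change minimum) in control and 0.03 (SE 0.13) in KO. HLA-E was not called against it in either line (-0.58 and -0.41, under the fold change minimum), and HLA-C was called in control (-1.01) but not in KO (-0.47). By this comparison 16 of 44 genes were called in control, 6 higher and 10 lower, beside 19.0% of all genes (8.41% higher and 10.6% lower), and 10 of 44 in KO, 4 higher and 6 lower, beside 13.1% (6.28% higher and 6.80% lower).

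The DHT counts behind these values were, for HLA-B, 1755.6 and 2138.5 in control and 1360.3 and 1547.8 in KO. HLA-C had 2979.3 and 3421.6 in control and 2117.0 and 2530.9 in KO, and HLA-E had 599.7 and 595.1 against 398.6 and 432.3. HLA-F had 48.5 and 53.5 in control and 30.7 and 42.8 in KO, and NLRC5 had 67.6 and 61.5 against 54.9 and 94.6. In each line the DHT samples of these 5 genes were above the FM samples. The share of all genes so separated is not given, here or where other groups are said not to overlap, so the separation is a description of these samples.

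Several antiviral effectors were called higher in FM against the DHT reference. In control 5 effectors were called higher and 4 lower, and in KO 4 higher and 1 lower. IFIT1 (1.48 in control and 1.38 in KO), OAS3 (1.21 and 0.7), IFITM2 (0.87 and 1.91) and IFI44L (1.19 and 1.08) were higher in both lines, and in control so were IFITM1 (1.07) and the sensor IFIH1 (1.33). IFIT1 had 61.8 and 53.5 normalized counts in control FM and 61.6 and 50.4 in KO FM, and IFIH1 had 69.6 and 62.3 in control against 41.0 and 37.3 in KO. ISG20 was lower in both lines (-2.75 and -1.18), and in control ISG15 (-1.47), IFI6 (-1.03), IFI27 (-1.73) and the factor IRF3 (-0.62) were lower. In DHT, ISG15 had 268.5 and 432.7 in control against 167.8 and 259.0 in KO, and IFI6 had 127.2 and 162.4 against 157.3 and 142.4. JAK1 was lower in KO (-0.7). JAK1 and IFI44L were called in none of the other comparisons.

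The 7 presentation genes in the MHC region of chromosome 6 (GRCh37, from HLA-F at 29690552 to TAPBP at 33282061) had median log2 fold changes of FM against EtOH of -0.8 in control and -0.7 in KO. The 262 other genes tested within 5 Mb of them had medians of -0.09 and -0.01, with 15 called higher and 31 lower in control and 21 higher and 21 lower in KO. NLRC5 lies elsewhere, on chromosome 16 (57023397 to 57117443). Of the 12 genes lower in FM in at least 1 line and matched to a promoter, 6 held the ISRE core. In HLA-B and HLA-C no match to the core was found in the window, and B2M, which rose, held it.

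Several interferon-induced effectors were also lower in FM. ISG15, a ubiquitin-like modifier, had 278.8 and 485.4 normalized counts in control EtOH and 128.1 and 125.5 in control FM (log2 fold change -1.59, SE 0.28, adjusted p = 2.8e-07), and 253.2 and 301.1 against 160.4 and 184.1 in KO (-0.69, SE 0.28, adjusted p = 0.0473). IFI6, an interferon-induced inhibitor of apoptosis, had 160.8 and 205.9 against 56.3 and 84.6 in control (-1.37, SE 0.25, adjusted p = 5.57e-07), and 183.1 and 173.2 against 98.9 and 117.3 in KO (-0.72, SE 0.24, adjusted p = 0.0111). Neither gene overlapped between FM and EtOH in either line. ISG20 had 87.5 and 122.3 against 53.0 and 33.1 in control (-1.29, SE 0.3, adjusted p = 0.000118), and 108.5 and 86.6 against 49.4 and 69.0 in KO (-0.72, SE 0.29, adjusted p = 0.0423). IFI27 was called in control, with 60 and 41.8 against 24.3 and 19.5 (-1.22, SE 0.4, adjusted p = 0.00873), and in KO, where its EtOH level was already 24.9 and 22.6, it was not called (-0.12, SE 0.43). The KO calls of ISG15 and ISG20 were each kept under 11 of 19 alternatives, and edgeR did not call ISG15. The KO call of IFI6 was lost without KO FM replicate 1, without either KO EtOH replicate and against the DHT samples (-0.48), and the control call of IFI27 without control FM replicate 2 or control EtOH replicate 1.

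Upstream of these effectors, IFNGR2, the signalling chain of the interferon gamma receptor, was lower in FM in both lines, with 627.1 and 654.5 normalized counts in control EtOH against 361.1 and 393.0 in FM (log2 fold change -0.76, SE 0.14, adjusted p = 2.32e-07) and 648.8 and 610.8 against 367.5 and 377.0 in KO (-0.76, SE 0.14, adjusted p = 3.03e-07). IFNAR1, IFNAR2 and IFNGR1 were not called. STAT2 had 2221.1 and 2202.1 in KO EtOH and 1467.1 and 1390.9 in KO FM (-0.63, SE 0.12, adjusted p = 2.62e-06), beside 2080.2 and 1709.9 against 1480.9 and 1525.2 in control (-0.33, SE 0.12, adjusted p = 0.0211), under the fold change minimum. IRF1 had 146.9 and 128.9 against 53.2 and 34.0 in KO (-1.65, SE 0.31, adjusted p = 1.39e-06), and in control, with 76.1 and 71.6 against 44.2 and 59.3, it was not called (-0.51, SE 0.32, adjusted p = 0.217). FM samples were lower than EtOH samples in each of these pairs. DDX58 was lower in KO, with 133.4 and 183.5 against 92.3 and 73.4 (-0.93, SE 0.24, adjusted p = 0.000691), a call lost without KO FM replicate 2 or KO EtOH replicate 2, and in control FM it had 121.5 and 116.7. Against the DHT samples of the same line, none of these genes was called: IFNGR2 changed by -0.44 in control and -0.46 in KO, and in KO STAT2 changed by -0.43, IRF1 by -0.48 and DDX58 by -0.11. IFNGR2 had DHT counts of 520.9 and 502.3 in control against 477.6 and 544.8 in KO. STAT2 in DHT had 1927.3 and 1681.5 in control against 1937.9 and 1910.4 in KO. The FM counts of MAVS, which was not called in FM, were 1023.7 and 1079.7 in control against 906.6 and 859.3 in KO.

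IFITM2 rose in FM in KO. It had 36.2 and 39.5 normalized counts in KO EtOH and 132.4 and 130.4 in KO FM (log2 fold change 1.79, SE 0.32, adjusted p = 2.23e-07), kept under all 19 alternatives. In control it had 34.3 and 34.8 against 48.6 and 63.2 (0.7, SE 0.34, adjusted p = 0.0953), without overlap and not called. In DHT it had 25.2 and 36.3 in control and 31.5 and 38.8 in KO.

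The calls in FM stood beside shifts in other genes of these samples. Fibroblast markers, of which COL1A1 made up most, summed to 442.2 to 499.1 normalized counts in FM and 739.2 to 839.4 in EtOH, and none of the 5 was at or under 3 counts in every sample. Endothelial markers, mostly VWF, summed to 223.7 to 241.8 in control FM against 178 to 206.9 in control EtOH, and basal epithelial markers to 28.9 to 32.9 in KO FM against 2.7 to 7.9 in KO EtOH. The basal epithelial shift was that of KRT14 alone, at 26.1 and 30.7 in KO FM against 3.4 and 0.9 in KO EtOH. TP63 and KRT5 had at most 4 counts in any sample. The leukocyte list summed to at most 18.2 in any sample. The part of the first 3 lists in the FM results was not tested.

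The FM response in KO was compared directly with that in control. No gene of the set was called by DESeq2 among 32 with an adjusted p, beside 1.39% of all genes (0.748% higher and 0.640% lower), nor by edgeR, and 7 had an unadjusted p under 0.05 by DESeq2 (DDX58, OAS3, IRF1, IRF3, IFITM3, IFITM2 and ISG15) and 10 by edgeR. The difference was 0.9 (SE 0.4, adjusted p = 0.251) for ISG15, -1.14 (SE 0.44, adjusted p = 0.177) for IRF1 and 1.09 (SE 0.46, adjusted p = 0.228) for IFITM2. Genes called in 1 line alone are thus not shown to differ in response. Without control EtOH replicate 1, 5 genes of the set were called.

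A list of 84 other genes of interferon signalling, sensing and antigen presentation was set beside the 48. It was chosen with earlier results of these data known, so its shares of calls describe the list and test nothing. Of these, 72 passed the filter. In KO against control 5 were called higher and 3 lower of 53 in EtOH (15.1%, beside 5.11% of all genes tested). In DHT 7 were higher and 5 lower of 52 (23.1%, beside 7.98%), and in FM 5 higher and 2 lower of 47 (14.9%, beside 8.01%). With DHT 4 rose and 5 fell of 58 in control (15.5%, beside 11.4%), and 2 rose and 4 fell of 58 in KO (10.3%, beside 7.68%). In FM against EtOH 4 were higher and 6 lower of 61 in control (16.4%, beside 21.3%). In KO 7 were higher and 8 lower of 61 (24.6%, beside 19.3%). In the tests of a different response 0 were called, beside 0.408% of all genes for DHT and 1.39% for FM.

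Of the other genes 5 were called in the same direction between the lines in all 3 media. The share of all genes with such calls is not given here. HERC6, a ligase of the family that attaches ISG15, had 5.7 and 4.0 normalized counts in control EtOH and 54.3 and 56.5 in KO EtOH, and its log2 fold changes were 3.51 (SE 0.56) in EtOH, 3.35 (SE 0.46) in DHT and 2.35 (SE 0.38) in FM. LGALS3BP, a secreted glycoprotein, had 312.1 and 279.5 against 778.8 and 788.6 in EtOH, with changes of 1.41, 1.54 and 1.2. DTX3L and PARP9, which form an ADP-ribosylating complex, had changes of 1.23, 1.4 and 0.95, and of 1.22, 1.19 and 0.71. SP100, a component of nuclear bodies, was lower, with 142.7 and 125.3 against 75.7 and 80.9 in EtOH and changes of -0.77, -0.87 and -0.81. KO samples of all 5 genes were on the same side of the control samples in each medium. Among the 48 genes IFITM1 alone had this arrangement of calls.

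The remaining 24 genes of the set were called in none of the 9 comparisons, those with the DHT reference for FM not counted. They comprise IFNAR1, IFNAR2 and IFNGR1 among the receptors, JAK1, JAK2 and TYK2, IRF2, IRF7 and IRF9 among the factors, TLR3 among the sensors, TAP2, ERAP1 and ERAP2 in presentation, and IFI35, IFI44, IFI44L, IFIT2, IFIT3, MX1, MX2, OAS1, OAS2, BST2 and TRIM22 among the induced genes. Of these, IFI44, whose transcripts share no 50-base word with other genes, came near the threshold between the lines. It had log2 fold changes of -0.82 (SE 0.32, adjusted p = 0.0882) in EtOH, -0.66 (SE 0.31, adjusted p = 0.13) in DHT and -0.65 (SE 0.32, adjusted p = 0.133) in FM. MX1, a GTPase that blocks viral nucleocapsids, overlaps TMPRSS2 on the other strand, and the strand setting of the counting was not given in the sources used here. For HLA-B 29.63% of the 50-base words, for IRF9 20.01% and for TAP2 18.47% occur in other annotated genes, so that their counts are uncertain.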

How the data were processed

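RNA was sequenced from 12 LNCaP samples in 6 groups of 2, assigned from the labels. Stranded poly(A) libraries (TruSeq) had been run on a HiSeq1500, and reads mapped to GRCh37 had been assigned to Ensembl genes. The submitters' processing notes name CASAVA 1.7, TopHat2 2.0.11 and HTSeq 0.5.3p3. The Ensembl release and the strand setting of the counting were not given in the sources used here. The values the authors deposited are raw counts per gene without normalization, for 63677 identifiers. HTSeq leaves out reads that map to several places or overlap several genes (6.9% to 7.97% of gene counts and HTSeq tallies together for the latter), which lowers genes with near copies, and reads of HLA alleles that differ from the reference may be missed.

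Genes with fewer than 10 summed counts were left out, which kept 26156, and DESeq2 (version 1.42.0, R 4.3.3) was fitted to all 12 samples with a coefficient per group, median-of-ratios size factors, Wald tests and unshrunken fold changes, as the study's methods name DESeq2. Calls required a Benjamini-Hochberg adjusted p of at most 0.05 over all genes tested and a fold change of at least 1.5. A gene to which DESeq2 gives no adjusted p was not called. Normalized counts are counts divided by size factors, and values per kb use the Ensembl canonical transcript of a GENCODE annotation on GRCh37. Replicates of a group differed by more than sampling noise (chi-square per degree of freedom 3.19 to 36.46), so each was counted once. The 48 genes, the 84 other pathway genes, the markers and the tests were chosen with earlier results of these data known. Genes called in at least 1 comparison and averaging 20 normalized counts or more are named with their value in each sample, some as a range. The fits were repeated with the quasi-likelihood test of edgeR 4.0.16, with TMM size factors, without the filter, with at least 10 counts in every sample, with a block for the replicate number, on only the samples compared, with no fold change minimum, with each sample left out in turn, and, added after results were seen, with the DHT samples as the reference for FM. HTSeq's tallies of unassigned reads stayed out of totals and tests. Protein sequences are not used here.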

Additional observations from a re-analysis of the deposited data

How the results depend on the processing

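The number of genes of the set called between KO and control in EtOH was 3, and it was 5 by edgeR, 1 with only the samples compared and 5 without a fold change minimum. In DHT it was 5, and 10 without a fold change minimum. For the DHT response in control it was 6, and 2 with only the samples compared, and for FM against EtOH in control it was 12, and 19 without a fold change minimum. Leaving out each sample in turn gave 1 to 3 for KO against control in EtOH, 0 to 8 in DHT and 1 to 5 in FM, 3 to 7 for the DHT response in control and 2 to 5 in KO, 10 to 16 for FM against EtOH in control and 9 to 14 in KO, and 0 to 1 and 0 to 5 for the differences in DHT and FM response. A group left with 1 sample was assumed to vary like the other groups. The cause of these changes was not tested, beyond the fewer samples each such fit holds. The 50 called log2 fold changes kept their direction under every alternative run except that of B2M for FM against EtOH in control, which was -0.41 when the DHT samples were the reference, a setting under which 15 of the 26 calls of FM against EtOH were kept. Of the 50 calls, 48 were kept by edgeR, 50 with TMM size factors and 50 without a filter, and 42 with only the samples compared; at 10 counts in every sample 47 of the 48 that could be fitted were kept.

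Replicate numbers are shared by the groups, but differences between replicates correlated between groups from -0.415 to 0.692 (mean 0.033, 8 of 15 positive), so the numbers were not taken to pair the samples. Under a block for the replicate number there were 3, 6 and 4 calls for KO against control in EtOH, DHT and FM, 6 and 5 for the DHT response in control and KO, 12 and 14 for FM against EtOH, and 0 for both differences in response; of the 50 calls 49 were kept, and that of IRF3 in FM (0.58) fell under the fold change minimum. With 2 samples a group, small changes in the 23 genes with a mean under 100 normalized counts were not detectable at this depth.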
